A study of Mus musculus with 4 samples.

Results

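The mitochondrial ribosomal protein genes were examined in single-cell RNA sequencing (scRNA-Seq) libraries of sorted mouse bone marrow (BM) macrophages. The members were the genes whose symbols begin with Mrpl or Mrps followed by a digit, without pseudogenes, and 78 of the 31053 genes in the deposited matrices met this rule. Of these, 49 carried large-subunit symbols (Mrpl) and 29 carried small-subunit symbols (Mrps). The rule reads symbols and no expression value.

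BM macrophages were grown from male C57BL/6J mice of 4 weeks of age in medium with the growth factor M-CSF. Co-culture lasted 16 to 18 h and was with RM1 cells, a mouse prostate cancer line made with Ras and Myc, which had been killed by ultraviolet light and labeled with the dye CFSE. Macrophages that carried the dye (F4/80+CFSE+, efferocytic, the cells that had engulfed apoptotic cells) were compared with sorted F4/80+ macrophages without it (non-efferocytic). The sources used here call the latter both non-engulfing and macrophages alone, so it is not settled whether they shared the wells with apoptotic cells or were kept without them. Each of 2 experiments gave 1 library of each group, so there were 2 libraries per group, no drug or genetic change in either, and no label that ties a library to 1 animal. If they shared the wells, the sort selected on engulfment, and a difference that was there before the apoptotic cells were added cannot be told apart from one that arose after. If they did not, engulfment cannot be told apart from contact with apoptotic cells. All 10 macrophage markers examined, including Adgre1 (F4/80), Csf1r and Cd68, were detected in every library, and 99.8% to 100% of the cells of each library held at least 1 UMI (unique molecular identifier, a tag that counts 1 captured transcript) of them. Together these markers are so abundant (below) that almost any barcode would hold 1. The percentage therefore does not show that each cell was a macrophage.

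The mitochondrial ribosome (mitoribosome) is the machine in the mitochondrial matrix that translates the few mRNAs of the mitochondrial genome, all of which encode subunits of the respiratory chain and of ATP synthase. Its RNAs are encoded in the mitochondrial genome, whereas all of its proteins are encoded in the nucleus, made by cytosolic ribosomes and imported. Some of these proteins descend from proteins of the bacterial ribosome, and others exist only in mitochondria. In macrophages, mitochondrial respiration is known to be engaged when the cells digest engulfed material.

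Upstream sequences are printed for 4 members at the ends of the ranking below, so that the sequence ahead of Mrps6 and Mrpl41, among the 3 highest in rank, and of Mrpl24 and Mrpl9, the lower ones as a share of UMIs, can be compared. None is printed for Mrps28. They are from the RefSeq sequence of GRCm38.p6, the assembly named mm10 elsewhere, run 5′ to 3′ on the strand of the gene, and lie outside every annotated exon. Capitals mark a match to the NRF1 motif GCGCNTGCG on either strand, and lower case marks all other bases.
Mrps6, chr16:92058086-92058269, plus strand: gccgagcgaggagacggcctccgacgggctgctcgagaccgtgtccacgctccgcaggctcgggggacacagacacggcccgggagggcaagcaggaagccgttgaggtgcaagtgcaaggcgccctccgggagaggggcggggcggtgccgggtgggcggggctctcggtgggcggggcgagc
Mrpl41, chr2:24975099-24975348, minus strand: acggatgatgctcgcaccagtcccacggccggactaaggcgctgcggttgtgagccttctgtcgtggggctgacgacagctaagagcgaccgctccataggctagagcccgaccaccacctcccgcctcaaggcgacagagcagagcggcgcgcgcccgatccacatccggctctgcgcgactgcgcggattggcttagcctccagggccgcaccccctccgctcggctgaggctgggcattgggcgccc
Mrpl24, chr3:87919294-87919505, plus strand: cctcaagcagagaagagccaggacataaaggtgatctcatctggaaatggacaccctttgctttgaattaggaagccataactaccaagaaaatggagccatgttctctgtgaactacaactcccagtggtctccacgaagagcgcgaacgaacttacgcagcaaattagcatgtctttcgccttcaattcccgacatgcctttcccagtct
Mrpl9, chr3:94443086-94443317, plus strand: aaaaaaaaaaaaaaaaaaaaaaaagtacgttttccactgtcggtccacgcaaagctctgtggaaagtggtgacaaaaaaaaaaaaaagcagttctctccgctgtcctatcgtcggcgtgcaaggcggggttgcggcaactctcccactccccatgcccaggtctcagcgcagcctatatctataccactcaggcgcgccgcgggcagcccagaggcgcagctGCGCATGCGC
G and C made up 75.5% of the Mrps6, 68.8% of the Mrpl41, 47.2% of the Mrpl24 and 53.0% of the Mrpl9 stretch. Over the members with a promoter window the median was 57.8% for those called higher and 58.8% for the others. The Mrpl9 stretch held 1 palindromic NRF1 match at its end, which matches on both strands. The other 3 stretches held no match to any motif searched.

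A promoter window of 250 bases was given for 69 of the 78 members. The motifs searched on both strands were CCGGAAG (bound by ETS factors), GCGCNTGCG (NRF1, a known activator of nuclear genes for mitochondrial proteins), AAGATGG (YY1) and CACGTG (E-box), of which the ETS and YY1 motifs can share letters where they adjoin. The ETS motif was present in 24.6% of the member promoters, in 13.8% of the 10469 promoters of tested genes and in 7.05% of all 27025 promoters. The NRF1 motif was present in 21.7% of the member promoters, against 11.1% and 5.40%, and the YY1 motif in 8.70%, against 4.37% and 4.53%. The E-box was at 7.25%, against 8.24% and 6.05%. Among the 22 members with a promoter that were called higher below, 5 had an ETS, 3 an NRF1, 1 a YY1 and 4 an E-box motif, and among the 47 others these counts were 12, 12, 5 and 1. These are letter matches in a window, given as a description without a test. A gene that starts on the opposite strand within 1000 bp, a head to head neighbor, was found for 18 of 78 members (23.1%) and for 1333 of the 12835 protein-coding genes tested, members included (10.4%), also without a test.

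All 78 members were detected in every library. A barcode was taken as a cell when it held 1000 UMIs and 200 genes or more, with no more than 10% of its UMIs from the mitochondrial genome. Experiment 1 gave 8280 cells of the non-efferocytic and 6695 of the efferocytic group, and Experiment 2 gave 13411 and 8408. The UMIs in these cells ranged from 101216659 to 155224183 per library, so 0 UMIs of a gene would still have allowed a level of up to 0.0193 to 0.0296 CPM (counts per 1000000 UMIs), for counting error only. Efferocytic cells were deeper, with a mean of 18670 and 18462 UMIs per cell in Experiments 1 and 2 against 12224 and 10316 in non-efferocytic cells. Pairs of libraries shared 14 to 118 barcodes, the most in Experiment 2 (1.40% of the efferocytic cells).

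The members together made up a slightly larger share of the UMIs in efferocytic BM macrophages in both experiments when all cells were summed, a direction that did not hold in every range of cell depth (below). In Experiment 1 their summed level was 5015 CPM (95% exact Poisson interval 5001 to 5029) in non-efferocytic and 5397 CPM (5385 to 5410) in efferocytic cells, 7.63% higher. In Experiment 2 it was 5449 CPM (5437 to 5461) and 5616 CPM (5605 to 5628), 3.07% higher. The intervals cover counting error only, and 1 library per group in an experiment allows no test. The non-efferocytic library of Experiment 2 lay above the efferocytic library of Experiment 1, so the groups overlapped when the experiments were pooled. In the same libraries a set of cytosolic ribosomal protein genes went the other way over all cells. It went from 154793 to 137626 CPM in Experiment 1 and from 155993 to 132591 CPM in Experiment 2. The set, for the ribosomes outside mitochondria, was taken by symbols that begin with Rpl or Rps followed by a digit. That rule also admits other genes, such as S6 kinases (Rps6k symbols), and leaves out the Rplp and Rpsa symbols. The set was not compared within ranges of cell depth. The mRNAs of the mitochondrial genome, the templates of the mitoribosome, had opposite directions in the experiments, from 31519 to 29241 CPM in Experiment 1 and from 28497 to 32737 CPM in Experiment 2.

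Both subunits shared in the difference. The large-subunit sum went from 3185 to 3380 CPM in Experiment 1 and from 3468 to 3564 CPM in Experiment 2. The small-subunit sum went from 1829 to 2018 CPM and from 1980 to 2052 CPM. The ratio of large to small was 1.74 in non-efferocytic and 1.68 in efferocytic cells in Experiment 1, a log2 change of -0.06 (counting interval -0.07 to -0.05). In Experiment 2 it was 1.75 and 1.74, a log2 change of -0.01 (-0.02 to -0.003), smaller than the difference between the efferocytic libraries. Symbols do not always give the place in the mitoribosome, since Mrps30 and Mrps18a belong to the large subunit and Mrps36 (also known as a subunit of the 2-oxoglutarate dehydrogenase complex) to neither. With these moved, the log2 change was -0.05 in Experiment 1 and -0.00013 in Experiment 2.

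More UMIs of the members were counted per cell in efferocytic BM macrophages. The mean was 61.3 member UMIs per non-efferocytic cell and 101 per efferocytic cell in Experiment 1, and 56.2 and 104 in Experiment 2. This was 1.64 and 1.84 times as many, beside 1.53 and 1.79 times as many UMIs of all genes. The size depended on the cells kept, since in cells of 5000 UMIs or more it was 1.58 and 1.52 times, beside 1.47 and 1.49. With each cell thinned to 5000 UMIs the means were 24.5 ± 6.29 (SD over cells) and 26.0 ± 6.77 in Experiment 1, and 26.5 ± 6.99 and 27.3 ± 7.01 in Experiment 2. The distributions of the cells overlapped almost wholly, with mean differences of 0.25 and 0.11 of an SD. The thinning left out 1099 and 544 shallower cells in Experiment 1 and 3404 and 505 in Experiment 2 (non-efferocytic and efferocytic).

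**Figure D1:**
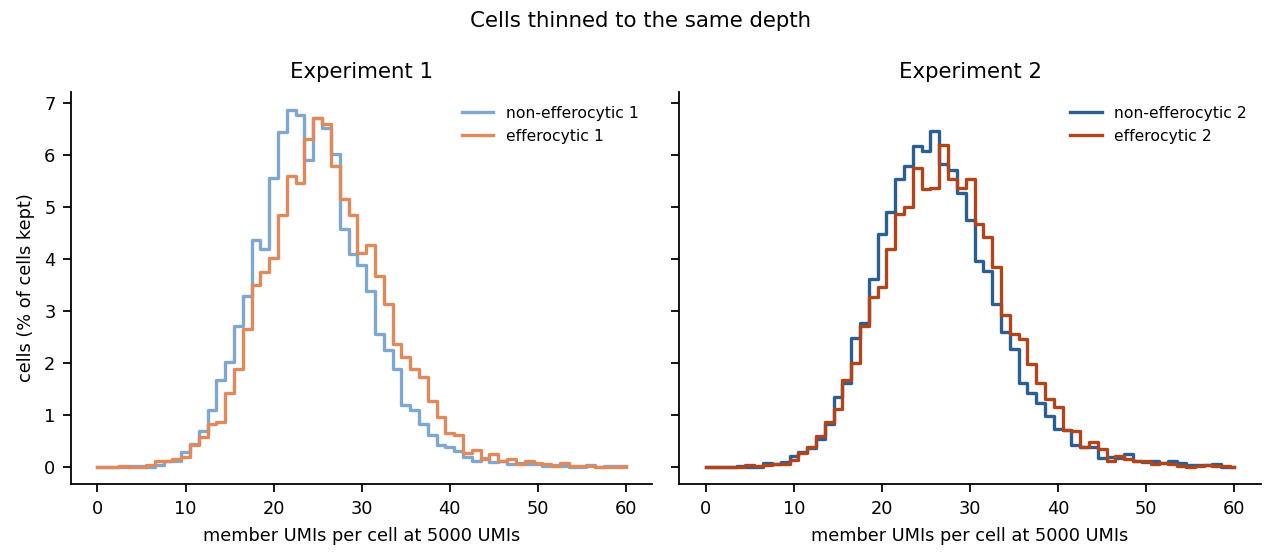
Member UMIs per cell after every cell was thinned to 5000 UMIs (x axis) against the percentage of the cells kept (y axis), with 1 line per library and 1 panel per experiment. The efferocytic lines lie slightly to the right, with means of 26.0 against 24.5 UMIs in Experiment 1 and 27.3 against 26.5 in Experiment 2.

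To test single genes, UMIs were summed per library and compared between the groups with edgeR's quasi-likelihood test, with the experiment as a block and Benjamini-Hochberg adjustment over 13869 genes (threshold 0.05). Of the 78 members, 26 were higher in efferocytic BM macrophages, 2 were lower and 50 were not called. Over all genes tested, 19.9% were called higher and 19.0% lower. The median log2 fold change was 0.18 over the members and -0.02 over all genes. Members are well-expressed genes, and among the 7097 genes whose mean level reached 10 CPM the shares were 29.9% higher and 14.5% lower with a median of 0.09, so the 33.3% of members called higher was near that share and the 2.56% called lower was below it. When those genes were refitted alone, 12 of 76 members were higher (15.8%) and 4 lower (5.26%), against 20.8% and 21.9% of the genes, so that the share called higher was below the background. On the unscaled CPM, 45 members were higher in the efferocytic library of both experiments, 18 were lower in both and 15 had opposite signs. Of all 13869 genes, 3946 were higher in both and 7184 lower in both. Among the 7097 genes of at least 10 CPM these counts were 2700 and 3009. With library totals in place of TMM, the scaling that edgeR estimates, 12 members were higher (15.4%) and 4 lower (5.13%), against 13.3% and 26.7% of all genes, and the median of all genes shifted to -0.12 and that of the members to 0.08. Without the block 9 were higher (11.5%) and 0 lower by edgeR, with 29 at an unadjusted p under 0.05, against 9.27% and 7.74% of all genes. The share called higher was near the background in both of these fits. Single libraries were left out in that fit, and the count of higher members was then 8 without the efferocytic library of Experiment 1 (11.4% of all genes were higher and 9.54% lower), 3 without that of Experiment 2 (3.46% and 3.28%), and 0 without either non-efferocytic library, where 7 (Experiment 1) and 22 (Experiment 2) had an unadjusted p under 0.05 and 0 of 13869 genes were called. DESeq2 called 18 higher and 1 lower, against 14.2% and 10.2% of all genes.

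**Figure D2:**
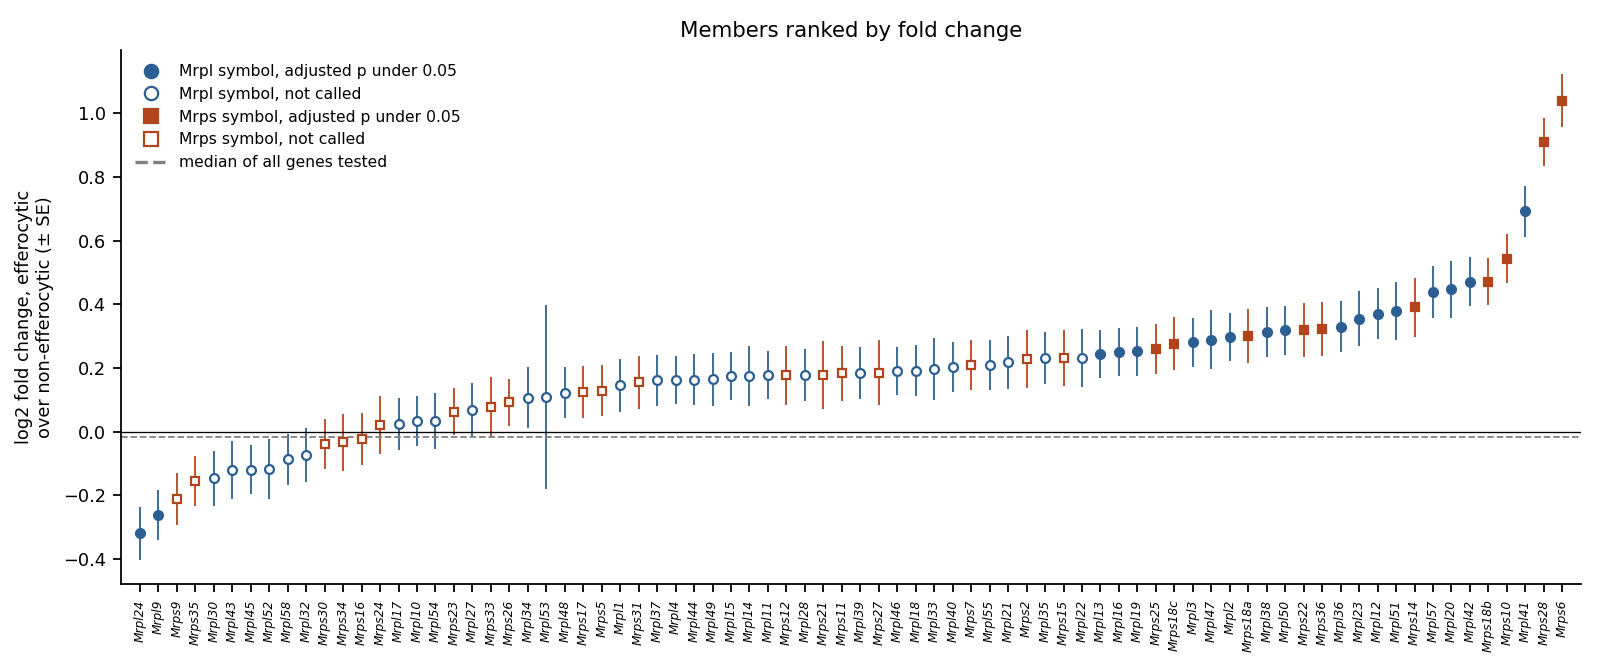
The 78 members ranked by log2 fold change of efferocytic over non-efferocytic cells (y axis, with the standard error), on edgeR's TMM scale, with circles for large-subunit and squares for small-subunit symbols and filled marks for an adjusted p under 0.05. Most members lie between 0 and 0.4, Mrps6, Mrps28 and Mrpl41 stand apart at the top, and Mrpl24 and Mrpl9 at the bottom are lower on this scale but higher per cell.

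By symbol, 16 of 49 large-subunit members were higher and 2 lower (median 0.18), and 10 of 29 small-subunit members were higher and 0 lower (median 0.18). The 0 lower for the small subunit depends on the setting, since 5 were lower with edgeR in cells of 5000 to 10000 UMIs. By place in the mitoribosome, with Mrps18a and Mrps30 counted as large, members listed as having a bacterial homolog were set beside the others, which include Mrps18a and Mrps18b, paralogs of bacterial S18, and leave out Mrpl55 and Mrps28. The higher ones were 10 of 29 and 7 of 21 in the large subunit and 4 of 15 and 3 of 10 in the small subunit, near the 29.9% of all genes of at least 10 CPM. Lists of members by position were also described, and they need not hold every protein of a position. Of the 6 listed for the exit tunnel of the nascent chain, Mrpl23 was higher (0.36) and 4 were not called. Mrpl24 was lower (-0.32, though higher per cell, as the median gene was). Of the 7 listed for the central protuberance 1, Mrpl38, was higher (0.31), and of the 4 listed for the stalks 1, Mrpl12, was higher (0.37). Mrpl12 forms the flexible stalk that recruits translation factors. Within the depth ranges below, Mrpl23 and Mrpl12 were called at 20000 UMIs or more only and Mrpl38 in none by edgeR (0.08 to 0.28), and Mrpl23 was at -0.23 (adjusted p = 0.135) in cells of 5000 to 10000 UMIs.

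Mrps6, a small-subunit protein related to bacterial S6, had the largest log2 fold change of the members. Its levels were 19.4 CPM in non-efferocytic and 38.2 CPM in efferocytic cells of Experiment 1, and 15.9 and 29.4 CPM in Experiment 2. Both efferocytic libraries were above both non-efferocytic libraries (33.8 ± 6.22 against 17.6 ± 2.50 CPM, SD, n = 2). The log2 fold change was 1.04 (SE 0.083, edgeR adjusted p = 0.000138). It is on the TMM scale and lies above the log2 ratios of the CPM, 0.98 and 0.89 in Experiments 1 and 2. The edgeR fold changes below are also on the TMM scale unless another scaling is named, so they can differ from the CPM beside them. The gene lies at chr16:92058270-92112227 (plus strand, GRCm38, GENCODE vM21), and overlaps Gm49711 and Slc5a3, which encodes a myo-inositol transporter, on the same strand. Reads that fit more than 1 gene are counted for none, so the separation of these genes is uncertain. Slc5a3 itself was at 6.09 and 7.71 CPM in Experiment 1 and 4.26 and 5.73 CPM in Experiment 2, and was called higher (log2 fold change 0.49, adjusted p = 0.00957).

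Mrps28, another small-subunit protein, was at 28.7 and 50.0 CPM in Experiment 1 and at 33.5 and 58.6 CPM in Experiment 2. The groups did not overlap (54.3 ± 6.05 against 31.1 ± 3.40 CPM, n = 2), and the log2 fold change was 0.91 (SE 0.075, edgeR adjusted p = 0.000157). It lies at chr3:8802146-8923918 on the minus strand and overlaps no gene of the same strand.

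Mrpl41, a large-subunit protein specific to mitochondria, was at 41.3 and 64.0 CPM in Experiment 1 and at 44.0 and 64.0 CPM in Experiment 2. The efferocytic libraries were alike and both lay above both others, with a log2 fold change of 0.69 (SE 0.080, edgeR adjusted p = 0.000615). The gene (chr2:24974117-24975098, minus strand) starts 935 bp from Pnpla7 on the other strand, which was not called (-0.14).

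Mrps10, related to bacterial S10, was at 22.1 and 29.4 CPM in Experiment 1 and at 24.8 and 34.2 CPM in Experiment 2 (log2 fold change 0.54, SE 0.076, edgeR adjusted p = 0.00138). Here too the lower efferocytic value was above the higher non-efferocytic value. The gene lies at chr17:47368887-47381417 on the plus strand.

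The next 4 in rank were Mrps18b (0.47), Mrpl42 (0.47), Mrpl20 (0.45) and Mrpl57 (0.44), with adjusted p from 0.00236 to 0.00631. Mrps18b was at 23.4 and 29.5 CPM in Experiment 1 and at 29.2 and 38.5 CPM in Experiment 2. Mrpl42, specific to mitochondria, was at 52.9 and 65.6 CPM and at 60.3 and 80.4 CPM. Mrpl57 was at 91.8 and 111 CPM and at 99.2 and 130 CPM. Their groups did not overlap, although the efferocytic library of Experiment 1 exceeded the non-efferocytic library of Experiment 2 by little for Mrps18b. Mrpl20, known from bacteria as an early binder in large-subunit assembly, was at 142 and 183 CPM and at 156 and 195 CPM, also without overlap.

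Mrps18a, Mrps18b and Mrps18c are 3 paralogs of bacterial S18, of which the first sits in the large and the others in the small subunit. All 3 were called higher over all cells, and none was called by edgeR within the depth ranges below (0.04 to 0.16, 0.16 to 0.20 and -0.05 to 0.23 in this order) or without the block (adjusted p from 0.0733 to 0.0945). The share called over all genes was the 19.9% given above. Mrps18a was at 86.7 and 102 CPM in Experiment 1 and at 98.2 and 110 CPM in Experiment 2 (log2 fold change 0.30, adjusted p = 0.0248). Mrps18c was at 96.7 and 111 CPM and at 100 and 111 CPM (0.28, adjusted p = 0.0328). Mrps18b starts 45 bp from the oppositely oriented Ppp1r10, a regulatory subunit of protein phosphatase 1, which was lower (-0.26). Over the 18 such neighbors of members, 3 were higher, 1 lower and 14 not called, against 19.9% and 19.0% of all genes.

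Mrpl24 and Mrpl9 were the members called lower as a share of all UMIs, while their UMIs per cell were higher (0.30 and 0.36 on the log2 scale). On that per-cell scale the median was 0.60 over all genes and 0.80 over the members, so both lay below the typical gene. Mrpl24, related to bacterial L24 at the mouth of the exit tunnel, was at 96.6 CPM in non-efferocytic and 73.9 CPM in efferocytic cells of Experiment 1, and at 92.8 and 67.1 CPM in Experiment 2. Both efferocytic libraries were below both non-efferocytic libraries (70.5 ± 4.85 against 94.7 ± 2.69 CPM, n = 2), with a log2 fold change of -0.32 (SE 0.083, edgeR adjusted p = 0.0186). Mrpl9, related to bacterial L9, was at 36.2 and 28.8 CPM in Experiment 1 and at 38.6 and 29.1 CPM in Experiment 2 (-0.26, SE 0.079, edgeR adjusted p = 0.0320). Without the block neither was called by edgeR (adjusted p = 0.0829 and 0.0746), and Mrpl9 was also not called by DESeq2 (adjusted p = 0.127) or in cells without a cycling UMI (edgeR adjusted p = 0.261). Both genes lie on chromosome 3, at chr3:87919506-87923672 and chr3:94443318-94451130, on the plus strand.

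**Figure D3:**
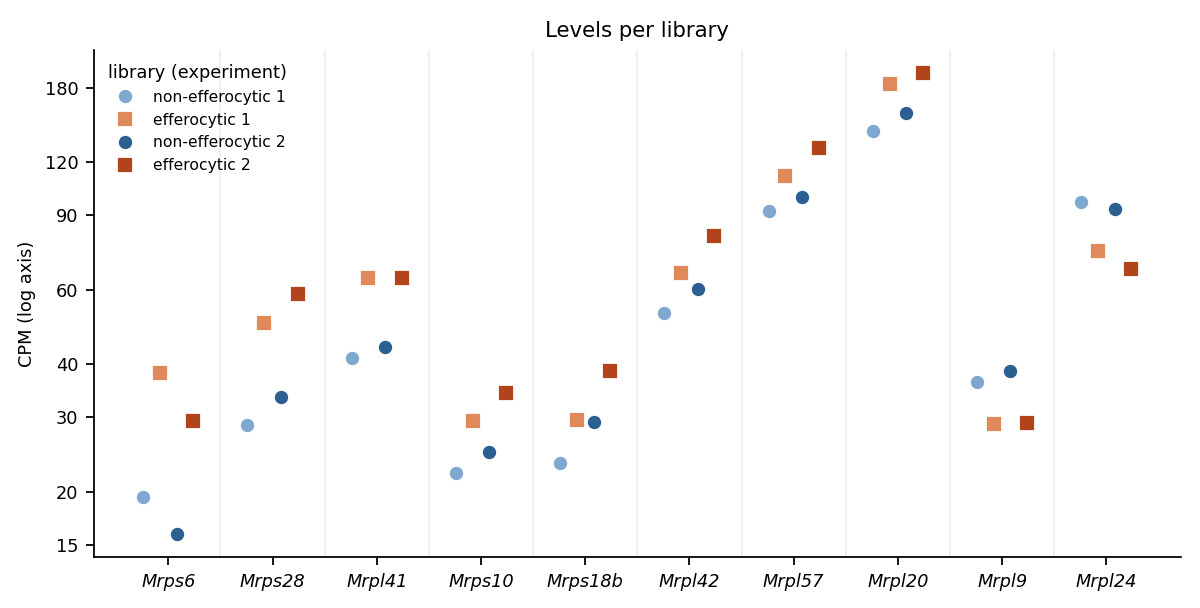
Levels of the 8 members with the largest log2 fold changes and of the 2 called lower, in CPM on a log axis, with 1 mark per library (circles non-efferocytic, squares efferocytic, darker marks Experiment 2). For Mrps6 the efferocytic libraries are at 38.2 and 29.4 CPM and the others at 19.4 and 15.9 CPM, and for Mrpl24 and Mrpl9 the squares lie below the circles on this scale. The UMIs per cell of Mrpl24 and Mrpl9 were higher, but by less than the median of all genes.

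The most abundant members by mean CPM were Mrps21, Mrpl33, Mrps14, Mrpl20 and Mrps24. Mrps14 (146 and 183 CPM in Experiment 1, 171 and 201 CPM in Experiment 2) was called higher (0.39, adjusted p = 0.0126). Mrps21 was at 254 and 288 CPM in Experiment 1 but at 238 and 231 CPM in Experiment 2, so that its directions were opposite (adjusted p = 0.216). Mrpl33 was at 214 and 238 CPM and at 250 and 255 CPM (adjusted p = 0.147). Mrps24 was at 163 and 159 CPM and at 181 and 164 CPM (0.02, adjusted p = 0.875). At the other end, Mrpl53 was at 0.66 to 1.13 CPM, with UMIs in 0.809% to 1.87% of cells. Mrpl53 overlaps Gm42688 and Mrps24 overlaps Urgcp, each on the same strand. Reads that fit both genes are counted for neither, so these 2 levels may be too low, which was not tested. In Mrpl14, Mrps17, Mrpl34, Mrps33 and Mrpl27 the CPM were also higher in the efferocytic library of Experiment 1 and lower in that of Experiment 2, by at most 0.14 on the log2 scale, with adjusted p from 0.171 to 0.557.

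Near the threshold, the called members Mrpl47 (0.29, adjusted p = 0.0403), Mrpl13 (0.24, 0.0333) and Mrpl19 (0.25, 0.0331) and the uncalled Mrpl35 (0.23, 0.0563), Mrps7 (0.21, 0.0674) and Mrps15 (0.23, 0.0701) had fold changes of similar size. Mrps36 was called higher (0.32, adjusted p = 0.0188), and Mrps30, known for its large-subunit place, was not called (-0.04 and higher per cell, adjusted p = 0.713).

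From 5000 UMIs per cell on, the share of UMIs taken by the members was larger in deeper cells within every library. In non-efferocytic cells of Experiment 1 it was 4215 CPM in cells of 1000 to 5000 UMIs, 4530 CPM at 5000 to 10000, 5022 CPM at 10000 to 20000 and 5424 CPM at 20000 or more. In non-efferocytic cells of Experiment 2 it was 4611, 4926, 5473 and 6044 CPM in the same order. Efferocytic cells had 4733, 4347, 5094 and 5660 CPM in Experiment 1 and 4758, 4431, 5318 and 5923 CPM in Experiment 2, where the shallowest range was the exception to the order. At least 20000 UMIs were held by 11.9% and 9.05% of non-efferocytic cells and by 38.8% and 37.0% of efferocytic cells.

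**Figure D4:**
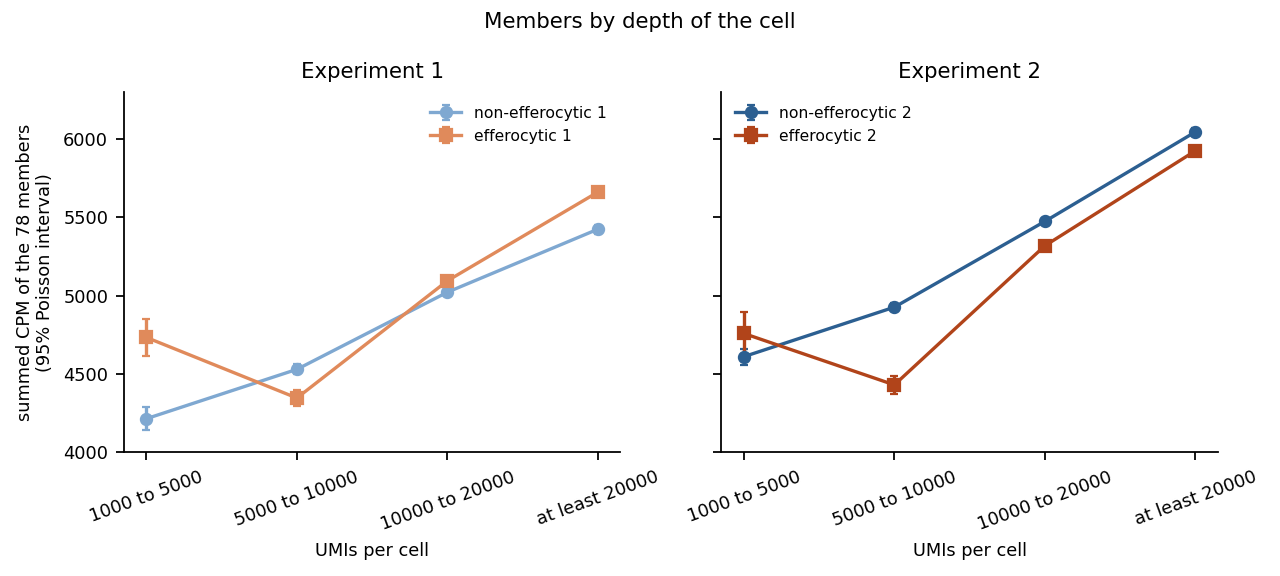
Summed level of the 78 members in CPM (y axis, not from 0, with 95% Poisson intervals) in cells grouped by their UMIs (x axis), with 1 line per library and 1 panel per experiment. The level is higher in deeper cells from 5000 UMIs on, and at 10000 to 20000 UMIs the efferocytic library is at 5094 against 5022 CPM in Experiment 1 and at 5318 against 5473 CPM in Experiment 2.

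The comparison was therefore repeated within ranges of depth, an alternative chosen after the data were seen. At 5000 to 10000 UMIs per cell the summed level differed by -4.04% (efferocytic relative to non-efferocytic cells) in Experiment 1 and by -10.1% in Experiment 2. At 20000 UMIs or more it differed by 4.36% in Experiment 1 and by -1.99% in Experiment 2. At 10000 to 20000 UMIs per cell it differed by 1.45% in Experiment 1 and by -2.84% in Experiment 2, although the mean depth of efferocytic cells was still 1.08 and 1.11 times that of non-efferocytic cells. With edgeR, 5 members were higher and 10 lower in this range (median -0.02), where 16.8% of the 12439 genes tested were called higher and 16.1% lower. At 5000 to 10000 UMIs, 4 of 77 members were higher and 16 lower (median -0.09), against 15.3% and 14.5% of 11028 genes. At 20000 UMIs or more, 15 were higher and 2 lower (median 0.11), against 14.6% and 16.7% of 13035 genes. The excess of higher over lower members in all cells was thus seen in the deepest range and not in the other 2 ranges fitted. Cells of 1000 to 5000 UMIs were not fitted. There the summed level was 4215 CPM in non-efferocytic and 4733 CPM in efferocytic cells of Experiment 1, and 4611 and 4758 CPM in Experiment 2.

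In all, 4 members were called higher in all 3 ranges (Mrps6, Mrps28, Mrpl41 and Mrps10), and Mrpl24 and Mrpl9 were called lower in all 3. At 10000 to 20000 UMIs, Mrps6 was at 18.2 and 34.4 CPM in Experiment 1 and at 15.3 and 27.2 CPM in Experiment 2 (log2 fold change 0.87, SE 0.096, edgeR adjusted p = 2.9e-05). Mrps28 was at 26.6 and 41.3 CPM and at 31.4 and 52.6 CPM (0.69, SE 0.085, edgeR adjusted p = 7.1e-05). Both were below their all-cell fold change and well above the median of the members.
Mrpl41 in this range was at 40.1 and 62.0 CPM and at 42.2 and 60.3 CPM (0.56, edgeR adjusted p = 0.000436), and Mrps10 was at 21.3 and 24.7 CPM and at 23.6 and 30.6 CPM (0.29, adjusted p = 0.0277). Mrpl24 was at 99.1 and 74.8 CPM and at 93.2 and 68.1 CPM (-0.43, adjusted p = 0.00306). Mrpl9 was at 36.3 and 29.8 CPM and at 38.5 and 29.6 CPM (-0.34, adjusted p = 0.0123). These 6 kept their direction and their call in each range, whereas Mrpl17, Mrpl30, Mrpl32, Mrpl43, Mrpl58, Mrps34 and Mrps35, named here for these calls, were not called over all cells and were lower in both ranges under 20000 UMIs. Of the 8 members with the largest all-cell fold changes, Mrpl57 was called in 2 ranges, Mrpl20 and Mrpl42 in 1 and Mrps18b in 0 (0.16 to 0.20 in the 3 ranges, by edgeR).

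**Figure D5:**
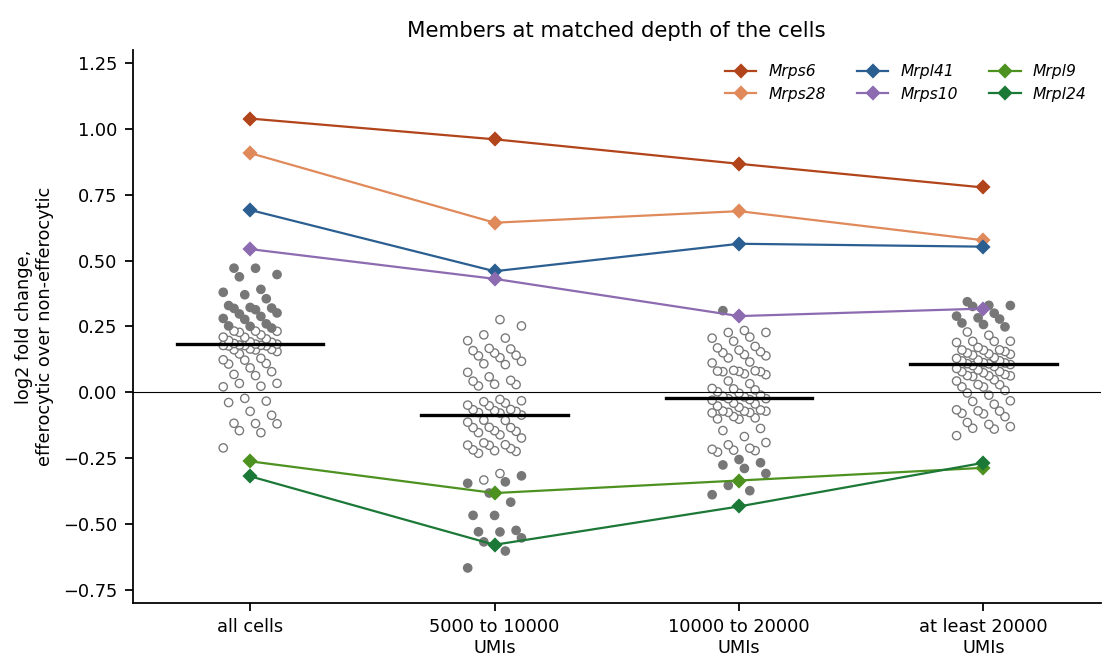
Log2 fold change of efferocytic over non-efferocytic cells (y axis) of each member in all cells and in 3 ranges of UMIs per cell (x axis), with filled marks for an adjusted p under 0.05, a bar at the median (0.18, -0.09, -0.02 and 0.11) and lines joining the 6 members called in the same direction in every range. Mrps6, Mrps28, Mrpl41 and Mrps10 stay above 0.28 throughout, while Mrpl9 and Mrpl24 stay below -0.26 on this scale.

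Scaled to the number of cells in place of UMIs, 69 members were higher and 0 lower by edgeR (73 had an unadjusted p under 0.05), where 49.9% of all genes were higher and 4.23% lower. The median was 0.80 over the members and 0.60 over all genes. The gap between these medians was 0.20, which a change of scaling alone cannot move. It was 0.09 among genes of at least 10 CPM and -0.07, -0.01 and 0.12 in the 3 ranges of depth, from shallow to deep.

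Genes of division and markers of other cells were summed beside the members. A list of 12 cycling genes summed to 239 and 241 CPM in Experiment 1 and to 239 and 329 CPM in Experiment 2 (non-efferocytic and efferocytic). Of these genes 6 were higher and 1, Ccnb2, was lower. Cells with at least 5 of its UMIs, a limit that deeper cells reach more easily, averaged 18583 to 27746 UMIs in the libraries. They made up 11.2% (non-efferocytic) and 21.8% (efferocytic) of Experiment 1 and 9.77% and 31.4% of Experiment 2, and members took 5526, 5772, 6088 and 5881 CPM in them. In cells without a cycling UMI they took 4754 and 4964 CPM in Experiment 1 and 5074 and 5216 CPM in Experiment 2, where 14 members were higher and 1, Mrpl24, was lower, against 13.3% and 11.7% of the 11340 genes tested. These cells were also shallower. The 10 macrophage markers summed to 41160 and 32894 CPM in Experiment 1 and to 35394 and 24854 CPM in Experiment 2. Of these 6 were lower, among them Csf1r (-1.15), the receptor for M-CSF, and Adgre1 (-0.38), and Cd68 (0.63), a protein of lysosomes, was higher. The 8 neutrophil markers summed to 3040 and 950 CPM in Experiment 1 and to 3335 and 704 CPM in Experiment 2, all 8 detected in every library, and the 6 fibroblast markers to 144 and 46.0 CPM and to 120 and 52.3 CPM. The 11 markers of RM1 or other epithelial cells summed to 1.02 and 0.160 CPM in Experiment 1 and to 11.6 and 9.43 CPM in Experiment 2. In cells with a macrophage marker and no UMI of the other cell types 20 members were higher and 2 lower, against 17.6% and 17.2% of the 12574 genes tested, and all of these members were called in the same direction over all cells. This filter kept unequal parts of the libraries, 71.5% (non-efferocytic) and 70.4% (efferocytic) of the cells of Experiment 1 and 42.1% and 76.0% of Experiment 2. The part of the depth of the cells, of division and of these markers in the members' differences was otherwise not tested.

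Other genes of mitochondrial translation were described from lists. Over the 5 lists of nuclear genes below, 16 genes were called higher. Fewer were called under the following settings, 1 of which did not test genes under a mean of 10 CPM. The count was 3 without the block, 5 by DESeq2, 5 with library totals, 4 among genes of at least 10 CPM, 4 to 6 in the depth ranges, and at most 6 with 1 library left out. The 5 mitoribosome subunits with other symbols had a median log2 fold change of 0.19, and 0 were called by edgeR, although Chchd1 (0.27) was close at an adjusted p of 0.0510. Of 14 translation factors 5 were higher and 0 lower (median 0.22), and the background was the 19.9% and 19.0% of all genes. Lrpprc, which stabilizes mitochondrial mRNAs, had the highest value (23.2 and 28.2 CPM in Experiment 1, 20.7 and 33.7 CPM in Experiment 2, 0.60, adjusted p = 0.00257), and Tufm, the elongation factor that brings aminoacyl-tRNA to the ribosome, the lowest of those called (29.3 and 31.3 CPM, 30.7 and 35.1 CPM, 0.25, adjusted p = 0.0313).

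Of 25 genes for mitoribosome assembly and rRNA modification, 5 were higher and 2 lower (median 0.13). Rpusd3, a pseudouridine synthase-like protein, was highest (0.41, adjusted p = 0.0423, at 2.34 to 3.18 CPM), and Mterf4, which guides rRNA methylation and subunit joining, was lowest (14.3 and 11.2 CPM in Experiment 1, 14.5 and 10.5 CPM in Experiment 2, -0.30, adjusted p = 0.0355). Of 17 mitochondrial aminoacyl-tRNA synthetases 6 were higher and 0 lower (median 0.27), from Nars2 for asparagine (0.66, adjusted p = 0.00703) to Cars2 for cysteine (0.27, adjusted p = 0.0492). Of 9 genes for transcription and the nucleoid 0 were higher by edgeR and 1, Polg2, the accessory subunit of the mitochondrial DNA polymerase, was lower (4.18 and 2.49 CPM, 4.25 and 2.59 CPM, -0.62, adjusted p = 0.00677).

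Of the 13 mRNAs of the mitochondrial genome, 2 were higher and 2 lower. The subunit of complex I mt-Nd2 was at 926 and 978 CPM in Experiment 1 and at 764 and 1208 CPM in Experiment 2 (0.48, adjusted p = 0.0343), and mt-Atp8, of ATP synthase, was at 158 and 113 CPM and at 152 and 82.9 CPM (-0.57, adjusted p = 0.00767). Over all cells their summed direction was opposite in the experiments and that of the members was not, although the summed members too were higher in Experiment 1 and lower in Experiment 2 in both depth ranges from 10000 UMIs on. Of 89 genes tested in the cytosolic ribosomal protein set, 4 were higher and 3 lower, with a median of -0.09 on the TMM scale. The set was taken by symbol and admits S6 kinases, so these are not counts of ribosomal proteins alone. On this scale 27 of the 89 genes were above 0, against 65 of the 78 members and 4381 of the 7097 genes of at least 10 CPM.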

How the data were processed

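Single-cell 3′ libraries (10x Genomics) of sorted BM macrophages were analyzed, 1 efferocytic and 1 non-efferocytic in each of 2 experiments. The authors aligned the reads to mm10 with Cell Ranger (version 3.0.0 in the methods and in the headers of Experiment 1, 3.1.0 in those of Experiment 2) and deposited the UMI counts of every barcode, without normalization or filter. The integration with Seurat and the tests between single cells were not repeated, since cells of 1 library are not replicates. Doublets were not removed.

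UMIs were summed per library over the cells kept by the study's limits (200 genes, 1000 UMIs, 10% mitochondrial UMIs), and CPM are relative to that sum. The limits were applied to every deposited barcode, and more cells were kept in each library than the study lists. The sums were tested with edgeR 4.0.16 in R 4.3.3 (quasi-likelihood test, TMM, filterByExpr, experiment as a block), and DESeq2 1.42.0 was run beside it. The tests were checked on simulated data. The block was used because the labels give each experiment 1 library of each group. Deviations from the group means went together within an experiment (correlation 0.61 over 13869 genes, which are not independent). With 2 libraries per group and the block, the p-values rest on how far the 2 experiments disagree in their differences between the groups. edgeR moderates that spread with the other genes tested. All 78 members passed the filter on low counts. Genes were placed with GENCODE vM21 (GRCm38), and promoters were matched by symbol.

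The gene family that makes up the members, the lists and the tests were chosen with earlier results of these data known. Named are the members with the 8 largest and 8 lowest log2 fold changes among those called, with the 2 lower ones all that were called, the 5 with the highest mean CPM, 6 with opposite signs, the Mrps18 paralogs, Mrps30 and Mrps36, the 3 nearest the threshold on each side, and in each further list the highest and lowest gene called. Mrpl53 and the called members of the position lists were named after their values were seen. Alternatives concerned the block, the test, scaling, gene and cell filters, cycling and other cells, subunit assignment, thinning, single libraries left out, and the depth of the cells.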

Additional observations from a re-analysis of the deposited data

Results flagged for a closer look

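The deposited matrices also hold barcodes of under 100 UMIs, which are mostly droplets without a cell and enter no comparison above. The members were found in them in every library, at 5003 CPM in the non-efferocytic and 5348 CPM in the efferocytic library of Experiment 1, and at 5515 and 5553 CPM in those of Experiment 2, which is above what a count of 0 allows. These levels lie next to those of the cells of the same libraries (5015, 5397, 5449 and 5616 CPM). The part of RNA outside cells in the levels of the members in cells was not tested.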

How the results depend on the processing

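The counts of members called depended on single libraries, on the depth of the cells, on scaling, on the filter on genes and on the replicate block. Without the replicate block, 9 members were higher and 0 lower (6 and 0 large-subunit, 3 small-subunit, and 3 genes of the 5 further lists of nuclear genes), against 26 and 2 with it. With 1 library left out, in a fit without the replicate block, where the lone library of a group is assumed to vary like the other group, the higher and lower members ranged from 0 to 8 and from 0 to 1, the large-subunit members from 0 to 4 and from 0 to 1, the small-subunit members higher from 0 to 4, the further lists from 0 to 6 higher and 0 to 1 lower, and the median from 0.13 to 0.26. DESeq2 gave 1 member lower, 10 large-subunit members higher, 1 lower, and 5 genes of the further lists higher, against 16 by edgeR.

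With library totals, 12 members were higher and 4 lower (large 7 higher, small 5 higher and 1 lower, further lists 5 and 6, median 0.076). With UMIs per cell, 69 were higher and 0 lower (large 43 and 0, small 26, further lists 52 and 0, median 0.80, summed ratios 0.72 and 0.88). Among genes of at least 10 CPM, 12 were higher and 4 lower (large 7, small 5 and 2, further lists 4, median 0.087). In cells without a cycling UMI, 14 were higher and 1 lower (large 7 and 1, further lists 4, median 0.11, summed ratio 0.062 in Experiment 1, large to small change -0.032 in Experiment 2). With macrophage markers and no UMI of other types, 7 genes of the further lists were higher and 5 lower, the median was 0.15 and the summed ratio of Experiment 2 was 0.051. The summed ratios were 0.10 and 0.033 at 5000 UMIs or more, and 0.049 in Experiment 2 at 5% mitochondrial UMIs. Assignment by place gave a large to small change of -0.00013 in Experiment 2.

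At 5000 to 10000 UMIs, 4 were higher and 16 lower (large 1 and 11, small 3 and 5, further lists 4 higher, median -0.087, summed ratios -0.059 and -0.15, large to small change -0.035 and 0.026). At 10000 to 20000 UMIs, 5 were higher and 10 lower (large 2 and 7, small 3 and 3, further lists 6 higher, median -0.021, summed ratios 0.021 and -0.042). At 20000 UMIs or more, 15 were higher (large 10, small 5, further lists 6 and 1 lower, median 0.11, summed ratios 0.062 and -0.029, large to small change 0.00019 in Experiment 2). These depth ranges were chosen after seeing the data.
Some named members changed sign in their log2 fold change. At 5000 to 10000 UMIs, Mrpl23 (-0.23), Mrpl17 (-0.38), Mrps36 (-0.073), Mrps18c (-0.049), Mrps15 (-0.15), Mrpl35 (-0.041), Mrps7 (-0.22), Mrpl33 (-0.13), Mrps21 (-0.11), Mrpl14 (-0.052), Mrps17 (-0.15), Mrpl34 (-0.31), Mrps33 (-0.19), Mrpl27 (-0.53) and Mrps24 (-0.57) did so. At 10000 to 20000 UMIs, Mrpl17 (-0.27), Mrps15 (-0.015), Mrpl35 (-0.018), Mrps7 (-0.068), Mrpl33 (-0.011), Mrps17 (-0.10), Mrpl34 (-0.093), Mrps33 (-0.072), Mrpl27 (-0.22) and Mrps24 (-0.22) did so. With library totals, Mrpl17 (-0.084), Mrpl34 (-0.00017), Mrps33 (-0.029), Mrpl27 (-0.040) and Mrps24 (-0.087) did so. Among genes of at least 10 CPM, Mrpl17 (-0.073), Mrps33 (-0.018), Mrpl27 (-0.028) and Mrps24 (-0.075) did so. In cells of 5000 UMIs or more, Mrps24 (-0.0040) did so. In cells without a cycling UMI, Mrpl17 (-0.065), Mrpl53 (-1.07) and Mrps24 (-0.082) did so. With macrophage markers and no UMI of other types, Mrpl53 (-0.076) and Mrps24 (-0.025) did so. At 20000 UMIs or more, Mrpl17 (-0.093), Mrpl53 (-0.12) and Mrps24 (-0.011) did so. With UMIs per cell, Mrps30 (0.58), Mrps34 (0.58), Mrpl32 (0.55), Mrpl58 (0.53), Mrpl43 (0.50), Mrpl30 (0.47), Mrps35 (0.46), Mrpl9 (0.36) and Mrpl24 (0.30) did so. With 1 library left out, the values ranged from -0.021 to 0.37 for Mrps21, from -0.025 to 0.16 for Mrpl27, from -0.057 to 0.10 for Mrps24 and for Mrpl17, from -0.22 to 0.55 for Mrpl53, from -0.20 to 0.053 for Mrpl32, from -0.19 to 0.014 for Mrpl58 and from -0.11 to 0.050 for Mrps34. UMIs per cell moved the median of all genes from -0.018 to 0.60, so sign changes under it follow from the scaling. Over all 78 members, 30 kept their direction under every other alternative run, among them Mrps6, Mrps28, Mrpl41 and Mrps10 and in all 17 of the 26 called higher. With the depth ranges set aside as well, 59 of 78 and 25 of the 26 did, the exception among the 26 being Mrpl16 (-0.0061 in cells without a cycling UMI). The cause of these changes was not tested.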
